A study of Mus musculus with 24 samples.

Results

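The genes described here are 32 that carry out or govern the synthesis of cholesterol and of long-chain fatty acids. They were chosen by name, with earlier results of these data known, and are all among the 13479 genes of the count table. By role, 7 act in the mevalonate steps, 11 in the squalene and sterol steps, 5 in regulation and sterol transport, and 9 in fatty acid synthesis. Of these, 30 passed the filter on low counts and were tested with 11337 genes in all. Idi1, the isopentenyl diphosphate isomerase, had 0 to 6 UMIs (unique molecular identifiers, each standing for 1 counted transcript) in a library. Fdft1, the squalene synthase, had 0 to 10 UMIs in a library, and neither gene was tested.

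The cells were primary dermal fibroblasts from mouse skin at passage 5, grown in serum. The groups were NIK knockout (KO) cells, cells labelled NIK X mut (MUT) and wild-type (WT) littermate cells, each left untreated or given TWEAK (100 ng/ml) for 6 or 24 h. There were 2 KO, 2 MUT and 4 WT libraries at each time, 24 in all, made by bulk MARS-seq, a method that tags the 3′ end of each transcript. TWEAK is a cytokine of the TNF family, and NIK is the kinase that starts noncanonical NF-κB signalling. The labels do not say what the X mutation changes, and no untreated library was collected at 6 or 24 h, so TWEAK and time in culture cannot be told apart. They do not say whether replicates were separate mice, so the p-values measure only the spread between these samples. RNA was extracted with either of 2 kits, with no record of which sample had which. In these bulk samples fewer cells of a type and less RNA per cell cannot be told apart.

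Cells make cholesterol from acetyl-CoA by way of mevalonate, squalene and lanosterol, and make fatty acids from the same precursor. Most of the enzymes are induced together by the SREBP transcription factors, encoded by Srebf1 and Srebf2. The SREBP precursors are carried by Scap from the endoplasmic reticulum to the Golgi for cleavage when sterols are scarce, and Insig proteins hold Scap back when sterols or certain oxysterols are plentiful. SREBPs act at promoters next to the factor NF-Y.

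Promoter sequences are shown for 4 genes that each fell at 6 h in at least 1 of the comparisons that follow: the only one with a match to the sterol regulatory element searched, and 3 others that hold NF-Y boxes, chosen after their values were seen. RefSeq windows of 250 bases before to 50 bases after a gene's start (GRCm38.p6) were at hand for 25 of the 32 genes. The sterol regulatory element was searched as TCACNCCAC, the NF-Y box as CCAAT and the E-box as CACGTG, each on both strands. The sterol element matched 3.23% of the genes' 31 windows and 1.24% of all 32851 windows. The NF-Y box matched 67.7% of the genes' windows and 37.4% of all windows, and the E-box 19.4% and 7.15%. The 250 bases before each start are given 5′ to 3′ along the gene, with the sterol element and the NF-Y boxes (CCAAT or ATTGG) in capitals.
Hmgcs1 (chr13:119690101-119690350, plus strand): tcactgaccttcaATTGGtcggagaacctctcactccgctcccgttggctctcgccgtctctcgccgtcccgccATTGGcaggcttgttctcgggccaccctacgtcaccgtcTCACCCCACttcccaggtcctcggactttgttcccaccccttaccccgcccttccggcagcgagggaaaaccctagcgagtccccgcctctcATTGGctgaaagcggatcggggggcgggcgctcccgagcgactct
Mvd (chr8:122443423-122443672, minus strand): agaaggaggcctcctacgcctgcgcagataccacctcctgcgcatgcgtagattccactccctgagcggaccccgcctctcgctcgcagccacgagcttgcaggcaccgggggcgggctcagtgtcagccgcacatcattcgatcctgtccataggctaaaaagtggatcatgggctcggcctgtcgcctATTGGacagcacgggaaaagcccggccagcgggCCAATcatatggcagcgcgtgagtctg
Mvk (chr5:114444019-114444268, plus strand): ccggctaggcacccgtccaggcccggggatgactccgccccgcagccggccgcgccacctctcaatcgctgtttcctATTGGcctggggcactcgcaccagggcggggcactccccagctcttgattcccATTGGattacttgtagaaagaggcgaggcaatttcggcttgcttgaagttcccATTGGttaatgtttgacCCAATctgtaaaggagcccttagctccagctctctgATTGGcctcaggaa
Lss (chr10:76531355-76531604, plus strand): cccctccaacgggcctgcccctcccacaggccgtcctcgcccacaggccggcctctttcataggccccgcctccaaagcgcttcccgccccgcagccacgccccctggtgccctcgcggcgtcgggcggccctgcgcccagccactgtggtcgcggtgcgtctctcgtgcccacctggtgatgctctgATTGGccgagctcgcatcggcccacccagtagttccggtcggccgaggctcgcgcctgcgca
The sterol element of Hmgcs1 begins 137 bases before its start. Its 3 NF-Y boxes begin 237, 176 and 45 bases before the start, on the opposite strand. Mvk held 5 NF-Y boxes in this stretch, Mvd 2 and Lss 1. These matches describe the letters and were not tested for binding.

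The libraries held 889863 to 4342981 UMIs and 12333 to 13338 detected genes. Map3k14, which encodes NIK, had 4 UMIs over all 6 KO libraries, against 63 to 164 UMIs in each MUT library and 34 to 186 UMIs in each WT library. All 9 fibroblast markers, among them Col1a1 and Vim, were tested. They summed to 13255 to 22398 CPM (UMI counts scaled to library size with TMM factors) in a library, with Lum at only 0.984 to 8.81 CPM. Col3a1 at 0, 6 and 24 h had 455, 302 and 130 CPM in WT replicate 1. In replicate 2 it had 2329, 2000 and 851 CPM. Markers of keratinocytes and sebocytes summed to 170 to 409 CPM, most of it Mgst1. Those of endothelium summed to 7.72 to 42.4 CPM, and those of macrophages and leukocytes to 5.20 to 17.3 CPM. Of 9 adipocyte markers 3 were in the table, with 1 to 56 UMIs in a library, and no value was at hand for the defining markers Adipoq, Plin1, Cidec, Lep and Cfd. NF-κB genes checked the treatment: of Map3k14, Nfkb2, Relb and Nfkbia, all 4 rose in WT at both times and 3 rose in MUT at both times, while in KO 3 rose at 6 h and 0 passed the test at 24 h. In the fit by genotype and time alone, 6.41% and 6.87% of all genes passed in WT at 6 and 24 h. The shares were 1.98% and 0.688% in MUT, and 0.0794% and 0% in KO. Nfkb2, Relb and Nfkbia still lay above untreated in KO at 24 h, as with 135 and 87.5 CPM of Nfkbia against 52.6 and 35.7 CPM.

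The libraries fell into 2 sets by the level of these genes, and the sets crossed the genotypes. All KO libraries and WT replicates 1 and 2 held the higher levels, and all MUT libraries and WT replicates 3 and 4 the lower. Every WT replicate 1 and 2 library lay above every WT replicate 3 and 4 library in 24 of the 30 genes, where 3.65% of all genes did. Every KO library lay above every MUT library in 25 of the 30, where 5.14% of all genes did. The division follows no label, was known from earlier work on these data and is described here with no test. Lss, the lanosterol synthase, had 64.7 and 65.1 CPM in untreated KO cells, against 87.2 and 56.3 CPM in untreated WT replicates 1 and 2. It had 16.8 and 17.3 CPM in untreated MUT cells, against 12.7 and 12.2 CPM in untreated WT replicates 3 and 4. Acss2, the cytosolic acetyl-CoA synthetase, had the widest gap, with 66.8 and 45.5 CPM in untreated KO cells and 8.65 and 11.8 CPM in untreated MUT cells, and with 64.3 and 57.3 CPM in untreated WT replicates 1 and 2 and 8.49 and 10.9 CPM in replicates 3 and 4. Over the 30 genes the median ratio of untreated levels was 2.12 for KO over MUT cells and 2.37 for WT replicates 1 and 2 over replicates 3 and 4. Within a set the median ratios were 0.965 for KO cells over WT replicates 1 and 2, and 1.08 for MUT cells over WT replicates 3 and 4. Ebp, a sterol isomerase, Srebf1, Scap, Stard4, Acaca and Fasn did not divide the WT libraries.

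**Figure D1:**
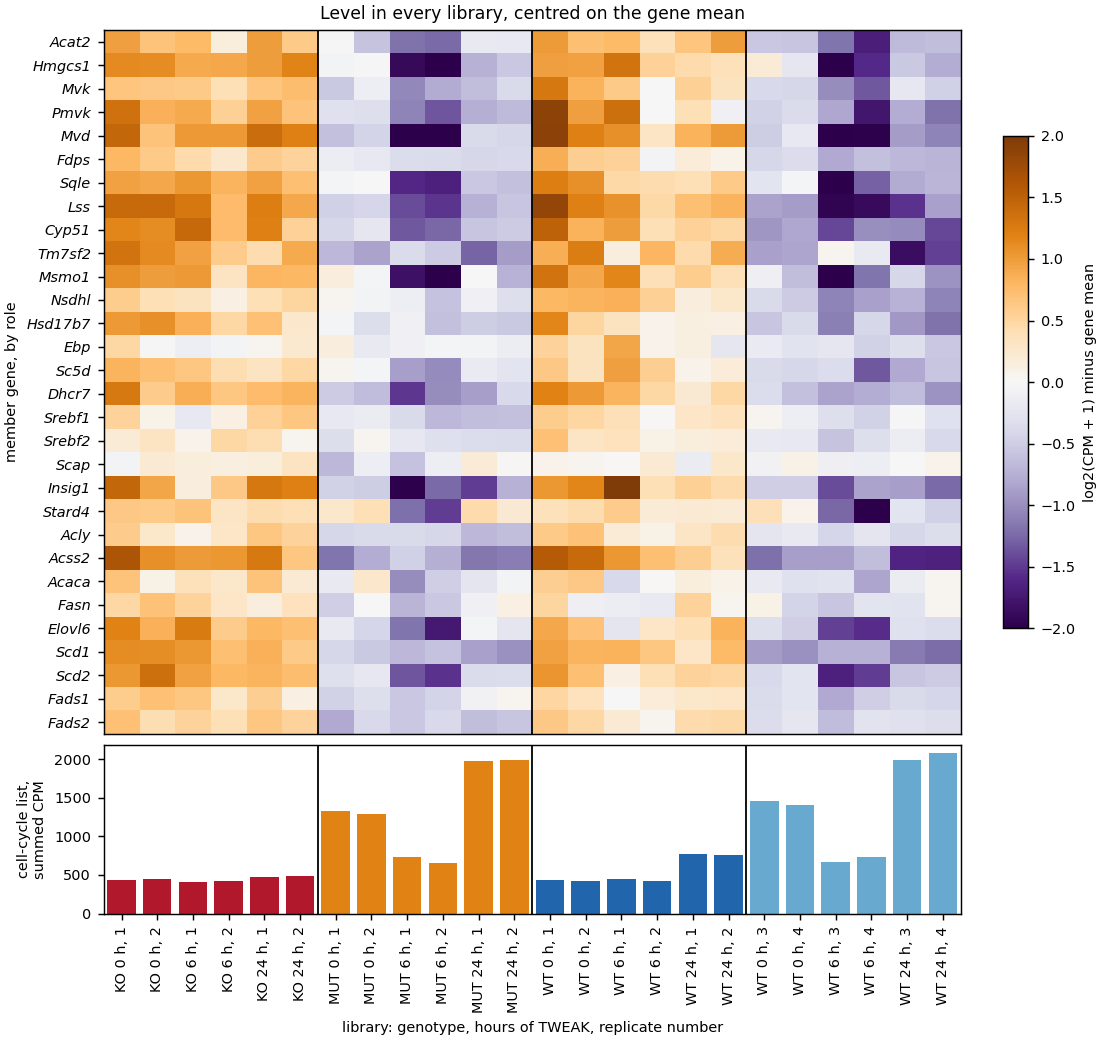
The upper panel shows the level of each of the 30 tested genes in every library as log2(CPM + 1) minus the gene's mean, with KO, MUT, WT replicates 1 and 2 and WT replicates 3 and 4 from left to right and the times in order within each. The lower panel shows the summed CPM of 20 cell-cycle genes, which was 411 to 486 in KO and 661 to 1983 in MUT libraries, and 416 to 772 in WT replicates 1 and 2 and 665 to 2081 in replicates 3 and 4.

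The summed level of 20 cell-cycle genes split untreated cells into the same sets but in the opposite direction, and is drawn under the levels of the synthesis genes. It was 436 to 453 CPM in KO and 418 to 436 CPM in WT replicates 1 and 2, where the synthesis genes were high, and 1295 to 1329 CPM in MUT and 1401 to 1454 CPM in WT replicates 3 and 4, where they were low. Its part in the division was not tested. Because of the sets, genes were tested in 3 edgeR fits. These were by genotype and time alone, with the cultures as a block, and with the WT library sets as separate groups. A culture is the libraries of a genotype that share a number, though the labels do not say that equal numbers pair libraries. The block covered KO and MUT cultures too, whose numbers did not meet the limit set for pairing. In the fit without a block the difference between the sets counts as spread within WT, and the estimate of spread is shared by every group.

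In WT cells, genes of both pathways were lower after 6 h of TWEAK once the cultures were taken as a block: 5 of the mevalonate enzymes, the sterol enzymes Sqle and Lss, and the fatty acid genes Scd2, Elovl6 and Acaca. Without the block, 0 of the 30 genes passed the test at 6 h, where 6.41% of all genes did, and 4 had an unadjusted p under 0.05; DESeq2 called 0. With the block 10 fell and 0 rose, against 4.9% of all genes that fell. With the library sets as groups 12 fell, against 4.93% of all genes. Leaving out a whole culture from the blocked fit gave 7 to 12. The median change over the 30 genes was -0.43, -0.43, -0.50 and -0.35 on the log2 scale in WT cultures 1 to 4, while the median over all genes lay between -0.03 and -0.01. In every culture 19 of the 30 were lower than untreated, where 14.5% of all genes were.

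Of the mevalonate enzymes 5 of 6 fell at 6 h with the block. Mvd, the diphosphomevalonate decarboxylase, had 117, 68.3, 12.9 and 13.2 CPM in WT replicates 1 to 4 at 6 h, against 206, 128, 38.2 and 47.6 CPM untreated. Each culture was lower at 6 h, and the 6 h and untreated values overlapped across the sets but not within either set. The log2 change was -1.14 ± 0.20 (SE; edgeR adjusted p = 0.000449 with the block and 0.34 without it). Mvk, the mevalonate kinase, had 164, 107, 52.8 and 41.9 CPM at 6 h, against 263, 191, 81.1 and 79.8 CPM untreated, a log2 change of -0.77 ± 0.15 (edgeR adjusted p = 0.00106 with the block and 0.244 without it). Pmvk, the phosphomevalonate kinase, had 119, 44.9, 25.1 and 12.6 CPM at 6 h, against 169, 90.1, 32.7 and 34.7 CPM untreated, a log2 change of -0.79 ± 0.18 (edgeR adjusted p = 0.00636 with the block and 0.425 without it). Both kinases were lower in 4 of 4 cultures. With the block the log2 change was -0.41 ± 0.11 for Fdps, the farnesyl diphosphate synthase, and -0.53 ± 0.16 for Acat2, the acetoacetyl-CoA thiolase (edgeR adjusted p = 0.0137 and 0.0345).

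Hmgcs1, the HMG-CoA synthase, missed the blocked test with a log2 change of -0.76 ± 0.27 (edgeR adjusted p = 0.0744) and parted by set. It had 471 and 272 CPM at 6 h in WT replicates 1 and 2, against 367 and 364 CPM untreated, and 41.3 and 61.4 CPM at 6 h in replicates 3 and 4, against 213 and 159 CPM untreated. With the sets as groups its log2 change was 0.01 ± 0.21 in WT replicates 1 and 2 and -1.85 ± 0.24 in replicates 3 and 4 (edgeR adjusted p = 0.995 and 1.56e-05). Stard4, a cytosolic sterol carrier, did the same, with 36.8 and 27.7 CPM at 6 h in replicates 1 and 2, against 31.2 and 32.5 CPM untreated, and with 9.48 and 4.59 CPM in replicates 3 and 4, against 31.4 and 25.1 CPM untreated. Stard4 had a blocked log2 change of -0.76 ± 0.27 over all 4 cultures (edgeR adjusted p = 0.072), and -2.05 ± 0.29 in replicates 3 and 4 alone (edgeR adjusted p = 4.68e-05). In replicates 1 and 2 the cultures went opposite ways: both genes were higher at 6 h in replicate 1 and lower in replicate 2. The 6 h library of replicate 1 was the shallowest, at 889863 UMIs. The difference between the sets in this response was not tested.

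**Figure D2:**
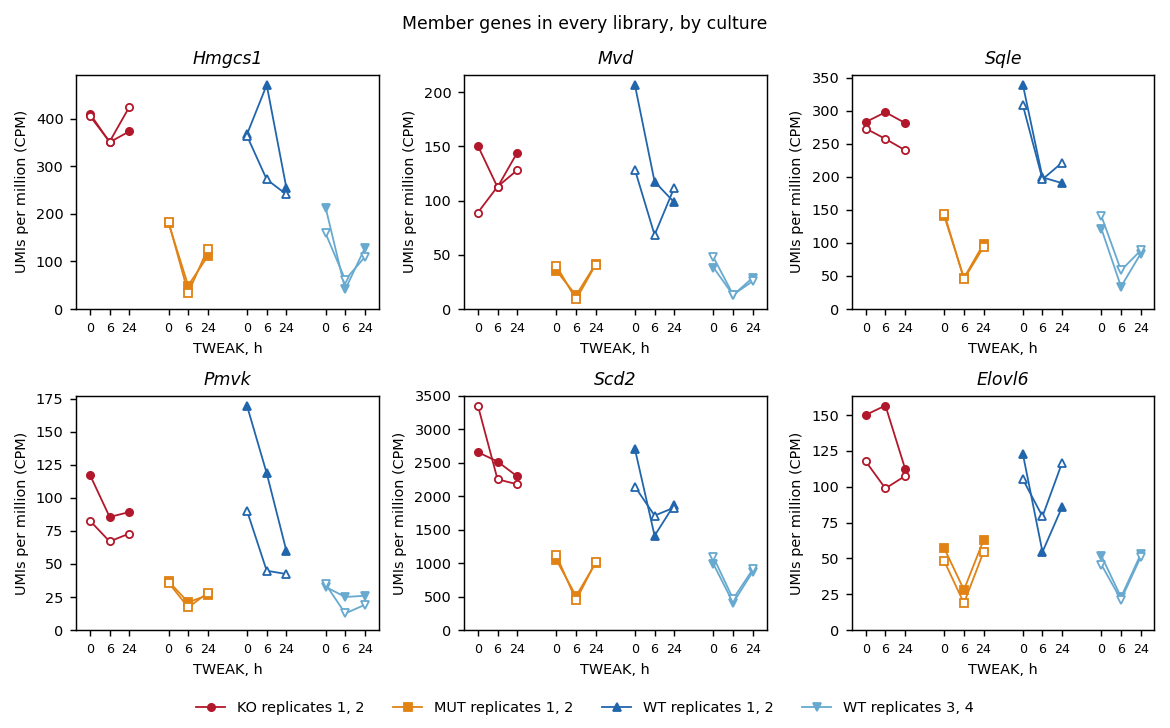
CPM of Hmgcs1, Mvd, Sqle, Pmvk, Scd2 and Elovl6 at 0, 6 and 24 h of TWEAK, with KO, MUT, WT replicates 1 and 2 and WT replicates 3 and 4 from left to right; each line joins the libraries of 1 replicate number, with the lower number filled. MUT libraries and WT replicates 3 and 4 have their lowest values at 6 h, as for Hmgcs1 with 33.6 to 61.4 CPM, and KO libraries stay high, with 350 to 424 CPM of Hmgcs1.

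Of 10 sterol enzymes tested, 2 fell in WT at 6 h with the block. Sqle, the squalene epoxidase, had 199, 196, 33.9 and 58.5 CPM at 6 h, against 339.5, 309, 121 and 141 CPM untreated. It was lower in 4 of 4 cultures, by -1.05 ± 0.16 on the log2 scale (edgeR adjusted p = 9.76e-05 with the block and 0.244 without it). Lss had 51.0, 33.0, 5.42 and 5.74 CPM at 6 h, against 87.2, 56.3, 12.7 and 12.2 CPM untreated, a log2 change of -0.89 ± 0.19 (edgeR adjusted p = 0.00402 with the block and 0.457 without it). The other 8 did not pass with the block. Their blocked log2 changes were -0.66 ± 0.22 for Msmo1, the sterol methyl oxidase, -0.47 ± 0.16 for Hsd17b7, -0.44 ± 0.17 for Dhcr7, -0.41 ± 0.16 for Cyp51, -0.27 ± 0.14 for Nsdhl, -0.03 ± 0.14 for Ebp, 0.01 ± 0.18 for the desaturase Sc5d and 0.06 ± 0.26 for the reductase Tm7sf2, whose direction differed between fits. Msmo1 passed with the sets, at -0.79 ± 0.22 (edgeR adjusted p = 0.0219). Tm7sf2 had 35.6 and 56.8 CPM at 6 h in WT replicates 1 and 2, against 59.0 and 76.9 CPM untreated, and 33.2 and 28.1 CPM in replicates 3 and 4, against 17.0 and 17.4 CPM untreated, so that its 2 sets went opposite ways.

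Of 9 fatty acid genes 3 fell in WT at 6 h with the block. Scd2, a stearoyl-CoA desaturase, had 1411, 1712, 408 and 466 CPM at 6 h, against 2704, 2143, 986 and 1086 CPM untreated, a log2 change of -0.92 ± 0.15 (edgeR adjusted p = 0.000196 with the block and 0.271 without it). Elovl6, the elongase of saturated fatty acids, had 54.5, 79.3, 23.0 and 21.2 CPM at 6 h, against 123, 105, 51.8 and 45.7 CPM untreated, a log2 change of -0.91 ± 0.16 (edgeR adjusted p = 0.00065 with the block and 0.192 without it). Both were lower in 4 of 4 cultures. Acaca, the acetyl-CoA carboxylase, had 16.6, 22.4, 18.3 and 12 CPM at 6 h, against 33.5, 35.1, 19.5 and 18.0 CPM untreated, a log2 change of -0.59 ± 0.19 (edgeR adjusted p = 0.0468 with the block and 0.149 without it). Acaca lost its call when culture 1, 2 or 4 was left out of the blocked fit. Scd1, the other stearoyl-CoA desaturase measured, had a blocked log2 change of -0.00 ± 0.13, Fasn, the fatty acid synthase, -0.30 ± 0.14, and Fads1 and Fads2, desaturases of polyunsaturated fatty acids, -0.34 ± 0.11 and -0.30 ± 0.11 (edgeR adjusted p = 0.998, 0.186, 0.0562 and 0.0962 with the block). Of 4 desaturases Scd2 alone passed.

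Acly, the ATP citrate lyase that makes cytosolic acetyl-CoA, had 263, 247, 171 and 195 CPM in WT at 6 h, against 356, 375, 195 and 204 CPM untreated, and passed with the sets at -0.32 ± 0.10 but not with the block (edgeR adjusted p = 0.047 and 0.0684).

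The regulators did not pass the test in WT at 6 h. Srebf1 and Srebf2, which encode the SREBPs, had blocked log2 changes of -0.35 ± 0.13 and -0.28 ± 0.13, and Scap, the escort protein, -0.04 ± 0.13. Insig1 is itself an SREBP target and had 115, 25.8, 6.77 and 10.3 CPM at 6 h, against 41.1, 44.7, 13.6 and 13.5 CPM untreated. The library with 115 CPM was also the shallowest, at 889863 UMIs, and the other 3 cultures were lower at 6 h. The fitted log2 change of Insig1 was 0.28 without the block, 0.11 with it, -0.04 with the sets and -0.97 without that library.

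**Figure D3:**
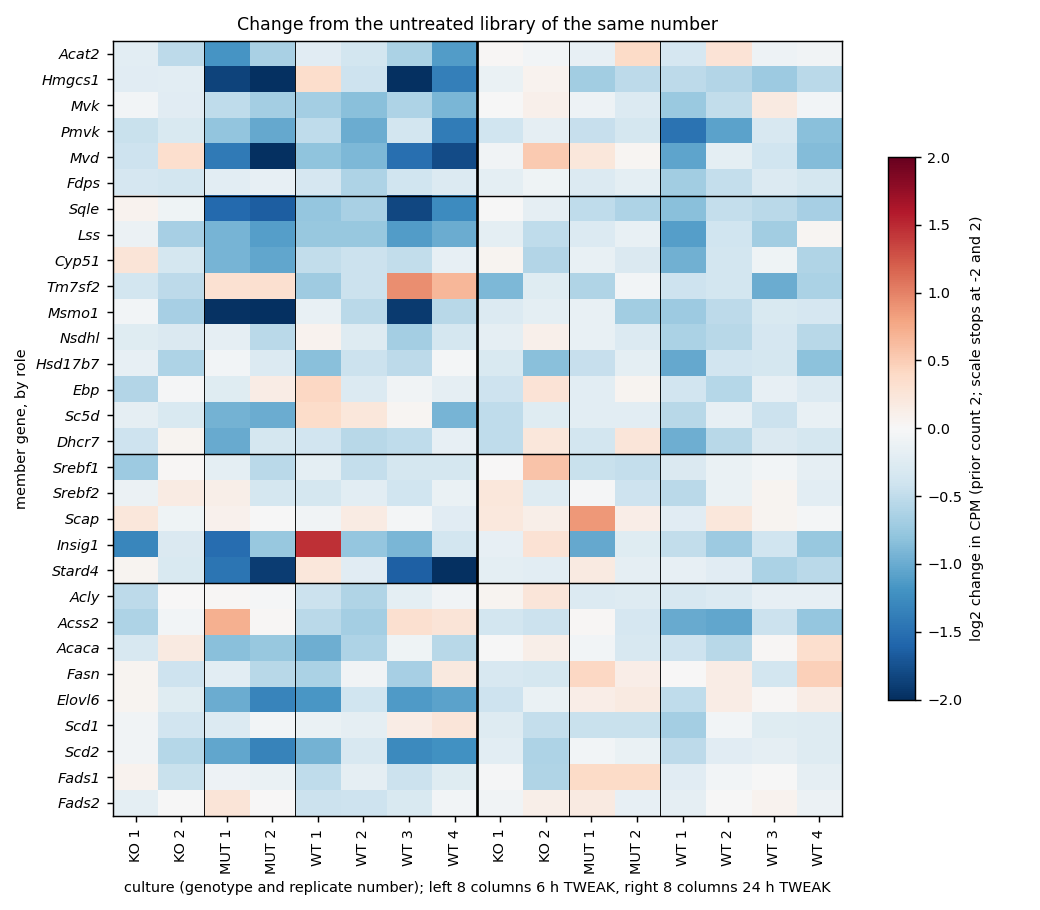
Log2 change in CPM (prior count 2) of each of the 30 genes in each treated library relative to the untreated library of the same number, with 6 h in the left 8 columns and 24 h in the right 8, and KO, MUT and WT from left to right. At 6 h the median change was -0.19 and -0.29 in KO, -0.65 and -0.60 in MUT, and -0.43, -0.43, -0.50 and -0.35 in WT cultures.

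At 24 h in WT, 3 mevalonate enzymes, 6 sterol enzymes and 1 fatty acid gene fell with the block. Without the block, 0 of 30 passed, where 6.87% of all genes did, and 1 had an unadjusted p under 0.05; DESeq2 called 0. With the block 10 fell and 0 rose, against 7.59% of all genes that fell, and 5 fell when culture 1 was left out. With the library sets as groups 10 fell, against 7.15% of all genes, and 5 or 6 when the untreated library of replicate 1 or 3 was left out. In every culture 21 of 30 were lower than untreated, where 18.4% of all genes were. Per culture the median log2 change was -0.54, -0.37, -0.28 and -0.27.

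Pmvk had 60.0, 42.4, 26.0 and 19.2 CPM in WT at 24 h, against 169, 90.1, 32.7 and 34.7 CPM untreated, a log2 change of -1.0 ± 0.18 (edgeR adjusted p = 0.000458 with the block). Fdps had 382, 360, 210 and 207 CPM at 24 h, against 616, 500, 254 and 265 CPM untreated, and fell by 0.45 ± 0.10 on the log2 scale (edgeR adjusted p = 0.00501 with the block). Mvd had 98.4, 112, 28.9 and 25.7 CPM at 24 h, against 206, 128, 38.2 and 47.6 CPM untreated, and fell by 0.62 ± 0.18 (edgeR adjusted p = 0.0237 with the block). All 3 mevalonate enzymes were lower in 4 of 4 cultures.

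Of 10 sterol enzymes 6 fell in WT at 24 h with the block, namely Hsd17b7, Sqle, Nsdhl, Dhcr7, Lss and Cyp51. Hsd17b7, a sterol ketone reductase, had 70.2, 69.4, 32.9 and 27.4 CPM at 24 h, against 144, 90.7, 42.5 and 48.9 CPM untreated, a log2 change of -0.65 ± 0.15 (edgeR adjusted p = 0.00531 with the block). Sqle had 191, 222, 83.7 and 88.7 CPM at 24 h, against 339.5, 309, 121 and 141 CPM untreated, a log2 change of -0.63 ± 0.15 (edgeR adjusted p = 0.00646 with the block). Nsdhl, a sterol dehydrogenase, had 75.1, 82.0, 40.7 and 31.7 CPM at 24 h, against 117, 120, 51.8 and 46.9 CPM untreated, a log2 change of -0.52 ± 0.14 (edgeR adjusted p = 0.0105 with the block). All 3 were lower in 4 of 4 cultures. Dhcr7, the reductase that makes cholesterol in the last step, and Cyp51, the lanosterol demethylase, fell by 0.59 and 0.52 on the log2 scale. Among fatty acid genes Acss2 fell alone at 24 h, with 31.5, 27.3, 6.06 and 6.02 CPM against 64.3, 57.3, 8.49 and 10.9 CPM untreated, a log2 change of -0.94 ± 0.18 (edgeR adjusted p = 0.000956 with the block). No regulator passed, and Insig1 had a log2 change of -0.62 ± 0.31 (edgeR adjusted p = 0.195 with the block).

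From 6 to 24 h in WT, 0 of 30 genes passed without the block, where 3.87% of all genes did, 1 had an unadjusted p under 0.05, and DESeq2 called 0. With the block 3 were higher at 24 h than at 6 h, against 5.7% of all genes that were higher. These were Elovl6 by 0.84 ± 0.16, Scd2 by 0.62 ± 0.15 and Mvk by 0.48 ± 0.15 on the log2 scale (edgeR adjusted p = 0.00152, 0.0071 and 0.038 with the block). The count was 6 without culture 1 and 1 without culture 3 or 4. With the sets 6 were higher, against 5.62% of all genes, and 2 were lower, against 5.08%: Tm7sf2 by -0.81 ± 0.19 and Acss2 by -0.69 ± 0.21 (edgeR adjusted p = 0.00714 and 0.0336). Elovl6 at 24 h had 85.9, 117, 52.8 and 50.9 CPM, near its untreated 123, 105, 51.8 and 45.7 CPM.

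Within the sets the 6 h change was not confined to either. In WT replicates 1 and 2 alone, 5 genes fell at 6 h, against 1.23% of all genes, and 8 fell at 24 h, against 3.38% of all genes. In WT replicates 3 and 4 alone, 9 fell at 6 h, against 4.5% of all genes, and 0 fell at 24 h, against 2% of all genes. These counts rest on 2 libraries a group: at 6 h that of replicates 1 and 2 was 0 without the untreated library of replicate 1 and 1 without the 6 h library of replicate 2. At 24 h it was 1 without the untreated library and 2 without the 24 h library of replicate 1, and 3 without the 24 h library of replicate 2. In replicates 3 and 4 at 6 h it was 5 without the untreated library of replicate 3. The 20 cell-cycle genes had a median log2 change of -1.12 at 6 h in WT replicates 3 and 4, with 16 lower, and of 0.06 in replicates 1 and 2, with 0 past the test. At 24 h their median over WT was 0.81, with 13 of 20 higher, against 8.37% of all genes, while the synthesis genes were lower.

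In MUT cells, with the library sets as groups, 11 genes fell after 6 h of TWEAK: the mevalonate enzymes Hmgcs1, Mvd and Acat2, the sterol enzymes Sqle, Msmo1, Lss, Cyp51 and Sc5d, the sterol carrier Stard4, and the fatty acid genes Scd2 and Elovl6. Without the sets, 0 of 30 passed the test in MUT at 6 h, where 1.98% of all genes did, and 7 had an unadjusted p under 0.05; DESeq2 called 1, Stard4. With the sets 0 rose, and 3.44% of all genes fell. The count was 6 without untreated replicate 1 and 5 without 6 h replicate 2. The median log2 change was -0.65 and -0.60 in the 2 MUT cultures, and 23 of 30 genes were lower in both, where 35.8% of all genes were. The cell-cycle genes fell here too, 15 of 20 with a median log2 change of -0.98.

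Hmgcs1 had 49.2 and 33.6 CPM in MUT cells at 6 h, against 181 and 184 CPM untreated, a log2 change of -2.17 ± 0.24 (edgeR adjusted p = 2.87e-06 with the sets). Mvd had 12.6 and 8.79 CPM at 6 h, against 35.3 and 39.9 CPM untreated, a log2 change of -1.85 ± 0.33 (edgeR adjusted p = 0.000825 with the sets). Acat2 had 30.2 and 29.2 CPM at 6 h, against 69.2 and 46.5 CPM untreated, a log2 change of -0.97 ± 0.25 (edgeR adjusted p = 0.0153 with the sets). In none of these, which were named because they passed the test, did treated and untreated libraries overlap. How many of all genes did not overlap here was not counted. Sqle had 47.1 and 45.2 CPM at 6 h, against 141 and 144 CPM untreated, a log2 change of -1.63 ± 0.19 (edgeR adjusted p = 5.29e-06 with the sets). Msmo1, the sterol methyl oxidase, had 21.1 and 18.0 CPM at 6 h, against 85.1 and 75.2 CPM untreated, a log2 change of -2.06 ± 0.33 (edgeR adjusted p = 0.000303 with the sets). Lss, Cyp51 and Sc5d fell by 1.10, 1.0 and 1.01 on the log2 scale.

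Stard4 had 9.83 and 8.0 CPM in MUT cells at 6 h, against 28.7 and 32.1 CPM untreated, a log2 change of -1.79 ± 0.25 (edgeR adjusted p = 6.69e-05 with the sets). In the authors' deposited table it was the 1 gene of the 32 past an adjusted p of 0.05 here, with a log2 change of -1.76 (adjusted p = 0.0282). Scd2 had 509 and 444 CPM at 6 h, against 1048 and 1119 CPM untreated, a log2 change of -1.19 ± 0.16 (edgeR adjusted p = 4.62e-05 with the sets). Elovl6 had 28.1 and 18.8 CPM at 6 h, against 57.0 and 48.1 CPM untreated, a log2 change of -1.21 ± 0.26 (edgeR adjusted p = 0.0035 with the sets). The other 3 desaturases did not pass, with a log2 change of -0.17 ± 0.17 for Scd1, -0.11 ± 0.17 for Fads1 and 0.13 ± 0.17 for Fads2.

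At 24 h in MUT cells against untreated, 0 of 30 passed, where 0.688% of all genes did, with 1 at an unadjusted p under 0.05 and 0 by DESeq2, and with the sets as groups again 0, where 2.98% of all genes did. In both cultures 19 of 30 were lower than untreated, where 33.7% of all genes were, with medians of -0.16 and -0.21. Among the sterol enzymes tested, Sqle had the largest fitted fall at 24 h, with 98.8 and 93.9 CPM. Its log2 change of -0.56 ± 0.17 did not pass (edgeR adjusted p = 0.0831 with the sets). Between 6 and 24 h, 0 of 30 passed without the sets, where 0.582% of all genes did, 6 had an unadjusted p under 0.05, and DESeq2 called 1, Stard4. With the sets 9 were higher at 24 h, against 4.61% of all genes that were higher, and 5 without 6 h replicate 2. Mvd reached 41.6 and 41.0 CPM at 24 h, against 12.6 and 8.79 CPM at 6 h, a difference of 2.0 ± 0.34 (edgeR adjusted p = 0.000438 with the sets). Stard4 reached 32.8 and 28.1 CPM, against 9.83 and 8.0 CPM at 6 h, a difference of 1.80 ± 0.26 (edgeR adjusted p = 7.54e-05 with the sets). Hmgcs1 reached 111 and 127 CPM, a difference of 1.55 ± 0.24 from 6 h, and Scd2 1005 and 1022 CPM, a difference of 1.09 ± 0.16 (edgeR adjusted p = 0.000198 and 0.000121 with the sets). The others past this test were Acat2, Sqle, Msmo1, Sc5d and Elovl6.

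**Figure D4:**
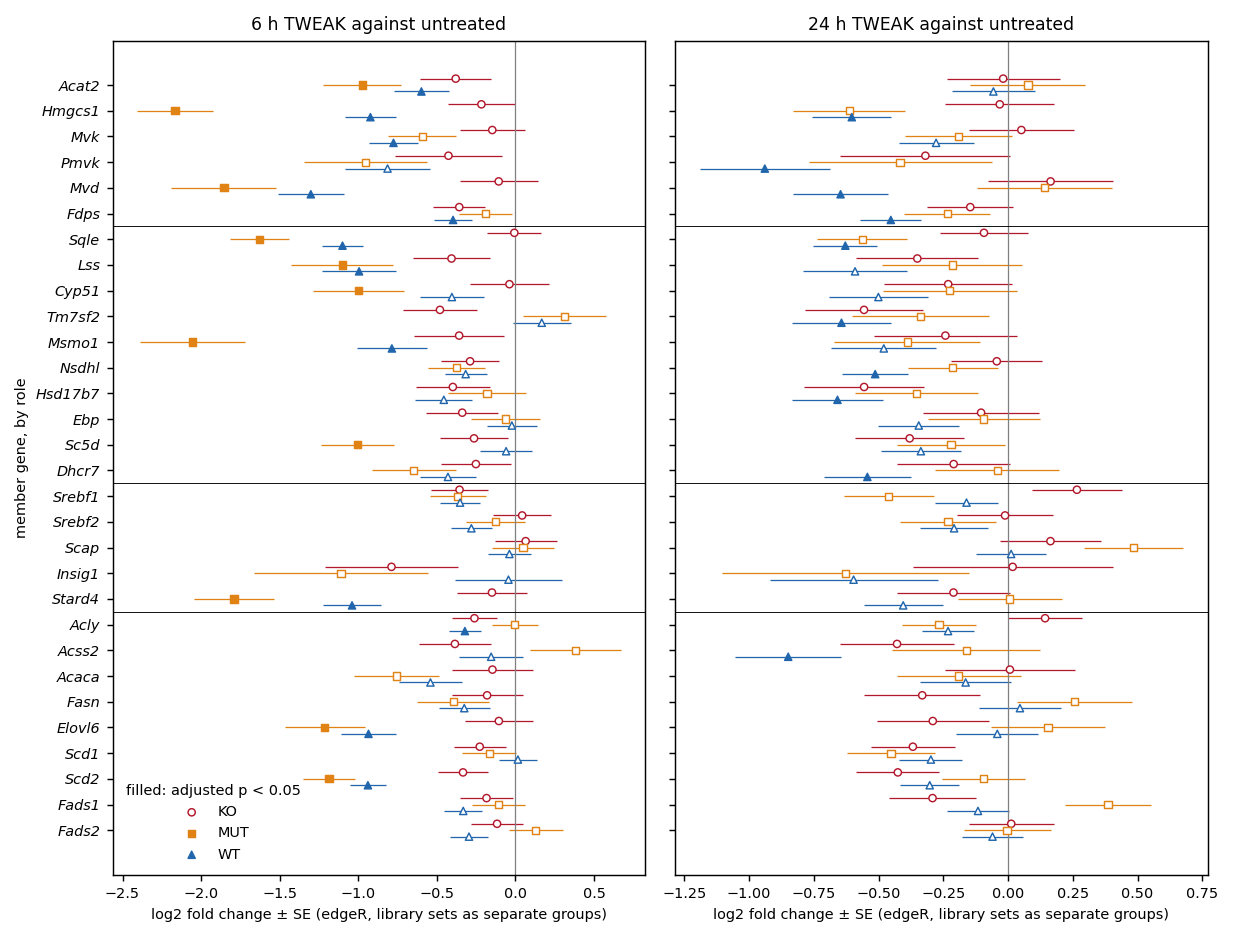
Log2 fold change ± SE of each of the 30 genes at 6 h (left) and 24 h (right) of TWEAK against untreated in KO, MUT and WT cells, from the edgeR fit with library sets as separate groups (WT averages both sets); filled points have an adjusted p under 0.05. At 6 h 0 KO, 11 MUT and 12 WT points are filled, and at 24 h 0 KO, 0 MUT and 10 WT points.

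In KO cells no gene of the 30 passed the test at either time. At 6 h 0 passed, where 0.0794% of all genes did, 0 had an unadjusted p under 0.05 and DESeq2 called 0. With the sets as groups 0 passed, where 0.106% of all genes did, and 2 had an unadjusted p under 0.05. At 24 h 0 passed, where 0% of all genes did, 0 had an unadjusted p under 0.05, and DESeq2 called 0 of the 30. With the sets 0 passed at 24 h, where 0.0265% of all genes did, and 4 had an unadjusted p under 0.05. From 6 to 24 h 0 passed, where 0% of all genes did, with 1 at an unadjusted p under 0.05 and 0 by DESeq2. The median log2 change was -0.19 and -0.29 in the KO cultures at 6 h and -0.18 and -0.15 at 24 h. At 6 h 17 of 30 genes were lower in both cultures, where 20.8% of all genes were, and at 24 h 15 were, where 24.9% of all genes were.

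Hmgcs1 had 350 and 351 CPM in KO cells at 6 h, against 410 and 405 CPM untreated, a log2 change of -0.22 ± 0.21. Sqle had 298 and 257 CPM at 6 h, against 283 and 273 CPM untreated, a log2 change of -0.01 ± 0.17. Stard4 had 39.2 and 29.9 CPM at 6 h, against 37.5 and 37.1 CPM untreated, a log2 change of -0.15 ± 0.22. KO libraries at 6 h overlapped the untreated ones in Sqle and Stard4, and both lay below them in Hmgcs1. Insig1 had the largest fitted value at 6 h, -0.79 ± 0.42, with 21.6 and 30.9 CPM against 54.8 and 37.8 CPM untreated. At 24 h the fitted log2 change was -0.56 ± 0.23 for both Tm7sf2 and Hsd17b7, the largest of the 30, and -0.43 ± 0.16 for Scd2, with 2298 and 2180 CPM against 2659 and 3357 CPM untreated (edgeR adjusted p = 0.866 for the sterol enzymes and 0.831 for Scd2 with the sets).

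The differences between genotypes in response did not pass the test for any of the 30 genes. For KO minus WT the count was 0 at 6 h, where 0.097% of all genes passed, and 0 at 24 h, where 0.265% did. For MUT minus WT it was 0 at both times, where 0% of all genes passed. In each of these contrasts 0 of the 30 had an unadjusted p under 0.05 without the block, and DESeq2 called 0. Set against WT replicates 1 and 2 alone, the KO response at 24 h again differed in 0 of 30, where 0.97% of all genes differed, and 6 had an unadjusted p under 0.05. The gap in Sqle at 6 h was 0.71 ± 0.24 in that fit, and in Mvd 0.80 ± 0.35, on the log2 scale (edgeR adjusted p = 0.445 and 0.596). MUT against WT replicates 3 and 4 differed by -0.14 ± 0.27 in Sqle and -0.31 ± 0.34 in Hmgcs1 at 6 h (edgeR adjusted p = 1 for both). KO and MUT libraries lay in different sets, so genotype and set cannot be told apart between them. The KO values are thus not shown to differ from WT.

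Before treatment, 0 of 30 genes differed between KO and WT cells, where 0.00882% of all genes did, and 0 differed between MUT and WT cells, where 0% of all genes did. At an unadjusted p under 0.05 there were 1 and 5, and DESeq2 called 0 in both. The fitted differences of MUT from all WT libraries were mostly negative, as in Acss2 with -1.84 ± 0.73 and Mvd with -1.50 ± 0.73 on the log2 scale. Against WT replicates 3 and 4 alone they were 0.08 ± 0.31 and -0.18 ± 0.27. Scd1 in untreated KO cells had 275 and 272 CPM, against 247, 224, 67.5 and 63.7 CPM in untreated WT cells, a difference of 0.85 ± 0.53 from all WT libraries and of 0.22 ± 0.16 from WT replicates 1 and 2.

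Genes around the synthesis pathway were counted from lists chosen with earlier results of these data known. Among 5 oxysterol and cholesterol ester enzymes tested, 2 rose in WT at 6 h without the block, against 4.35% of all genes that rose. Ch25h makes an oxysterol from cholesterol, and had 40.3, 88.4, 230 and 249 CPM in WT at 6 h, against 19.4, 37.3, 55.6 and 50.8 CPM untreated. It rose in 4 of 4 cultures, by 1.93 ± 0.43 on the log2 scale (edgeR adjusted p = 0.0072). Soat1 stores cholesterol as esters, and had 43.9, 34.9, 123 and 197 CPM at 6 h, against 17.5, 27.7, 56.9 and 51.5 CPM untreated, a log2 change of 1.42 ± 0.41 (edgeR adjusted p = 0.0391). In MUT cells 0 of the 5 passed at 6 h without the block, where 1.98% of all genes did. With the sets 2 rose in MUT at 6 h, where 4.38% of all genes rose. Of these, Ch25h had 290 and 270 CPM at 6 h, against 58.4 and 62.8 CPM untreated, a log2 change of 2.21 ± 0.30 with the sets. Soat1 in MUT cells had 194 and 141 CPM at 6 h, against 60.3 and 54.3 CPM untreated. In KO cells 0 of the 5 passed the test at either time, where without the block 0.0794% of all genes passed at 6 h and 0% at 24 h. With the sets 0 of the 5 passed in KO cells too, where 0.106% and 0.0265% of all genes passed. Ch25h in KO cells had 76.3 and 67 CPM at 6 h, against 35.4 and 41.3 CPM untreated. The level of Ch25h in the untreated sets ran opposite to that of the synthesis genes, and whether the changes are linked was not tested. Cyp7b1, an oxysterol hydroxylase, rose in WT at 24 h, where 3.68% of all genes rose, with 0.984, 5.22, 8.66 and 13.1 CPM against 0, 1.93, 0.425 and 3.22 CPM untreated.

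Of 16 other SREBP pathway genes 0 passed in WT at 6 h without the block and 3 with it, where 11.6% of all genes passed: Acsl3, an acyl-CoA synthetase, fell by 1.10 and Aacs, the acetoacetyl-CoA synthetase, fell by 0.43, while Insig2 rose by 0.45 on the log2 scale. With the sets, Acsl3 and Lpin1 fell in MUT at 6 h, where 3.44% of all genes fell. Of 7 LXR targets and efflux genes, 0 passed in WT at 6 h, where 6.41% of all genes passed. At 24 h 1 of them, Mylip, fell by 1.2 ± 0.34 (edgeR adjusted p = 0.0359), where 3.19% of all genes fell. Of 10 genes of sterol uptake and transport, the lipoprotein receptor Lrp8 fell in WT at 6 h by 0.70 ± 0.20 and Vldlr had a log2 change of -1.60 ± 0.42 in MUT at 6 h (edgeR adjusted p = 0.0402 and 0.0482). In those comparisons 2.06% and 0.485% of all genes fell. In KO 0 genes of these lists passed at either time, where without the block 0.0794% of all genes passed at 6 h and 0% at 24 h.

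Some counts may share reads with other genes, since the sources used here do not say whether counting used strand. In GENCODE M21 (GRCm38), exons of Tm7sf2 share 532 bases with Vps51 on the same strand. On the opposite strand, exons of Acss2 share 395 bases with Gss and 197 with Ggt7, those of Cyp51 share 166 with Akap9, those of Srebf1 share 109 with Rai1 and those of Fdft1 share 774 with Ctsb. Scd1 and Scd2 are close paralogs, and the handling of reads that match both is not given in the sources used here.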

How the data were processed

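Bulk MARS-seq libraries from 50 ng of RNA were sequenced; reads were handled with STAR 2.7.10a, HTSeq, cutadapt and DESeq2 on mm10, per the submitters' processing notes, which give no order of steps. The deposited values used are raw UMI counts per gene, and the authors' deposited table of comparisons gives log2 fold changes and adjusted p-values; 48 normalised columns were not used. Column names give 3 h where the labels give 6 h, and the labels were followed. The 32 genes and all lists were chosen with earlier results of these data known.

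Genes were filtered with filterByExpr, scaled by TMM and tested with edgeR 4.0.16 (R 4.3.3) by the quasi-likelihood test with Benjamini-Hochberg adjustment over 11337 genes, threshold 0.05, with 24 libraries in 9 groups and 15 comparisons. SE is the log2 fold change divided by the root of F. DESeq2 1.42.0 was an alternative. The fits were tested on simulated data that held no library sets and no differences between cultures, so that test cannot show which fit suits these data. Levels are CPM, and log2 CPM has a prior count of 2. By the naming rule, each member is named at least once, and values are given in full for members past the test with or without the block, at most 3 a role by smallest adjusted p, or for the largest change with a mean of at least 5 CPM where a role has none; other lists name at most 4. Members past the test with the library sets were named too, after their values were seen.

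WT libraries of the same number deviated together over 7289 genes, with correlations of 0.328 to 0.688 that include the difference between library sets. Values with the block are therefore given for WT, from a fit that also blocks KO and MUT cultures. Counting error sets a floor of 3 counts in a library.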

Additional observations from a re-analysis of the deposited data

Results flagged for a closer look

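Of 152 groups of values examined for a sample far from the others, 2 held one, where chance gives about 1 in 20. For Cyp51 the log2 change at 6 h of TWEAK was -0.161 in WT replicate 4, and between -0.49 and -0.43 in the other WT cultures. For Elovl6 it was -0.404 in WT replicate 2, and between -1.16 and -1.07 in the others.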

How the results depend on the processing

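Counts of the 30 genes past the edgeR test, 0 in every comparison without a block, depended on how the library sets were handled. With the replicate block they were 10 in WT at 6 h, 10 in WT at 24 h, 3 in WT between 24 and 6 h, 12 in MUT at 6 h and 10 in MUT between 24 and 6 h, and 0 in KO. With the sets as groups they were 12, 10, 8 (6 higher and 2 lower), 11 and 9 in that order. With only the groups compared in the fit they were 13 in MUT at 6 h, 4 in MUT at 24 h and 13 in MUT between 24 and 6 h. Shares of all genes are not given for these or for the blocked MUT and KO counts. Without such shares, these counts cannot be read as particular to the 30 genes. DESeq2 and the authors' deposited table each gave 1 in MUT at 6 h and 1 in MUT between 24 and 6 h. Leaving out a library gave 0 to 1 in WT at 6 h, in MUT at 6 h and in MUT between 24 and 6 h. The cause of these differences was not tested. Directions reversed in values that passed neither in the fit without a block nor in the fit that turned them, with an adjusted p of 0.279 or more (edgeR, DESeq2 or the authors' deposited table) where there was one. Among them Tm7sf2 between 24 and 6 h in WT, which leaving out a library turned, did pass with the sets. With the sets the median over the 30 genes became -0.044 for untreated KO and 0.10 for untreated MUT cells against WT, and in untreated MUT cells Acss2 became 0.078, Lss 0.45 and Insig1 0.0069. In WT at 6 h the sets turned Sc5d to -0.059, Scd1 to 0.016, Insig1 to -0.045 and Tm7sf2 to 0.17 (0.063 with the block), and Ebp became 0.0029 with DESeq2 size factors, 0.013 with DESeq2, 0.014 with only the groups compared and 0.013 in the authors' deposited table. Leaving out a library also turned some values. In WT at 6 h it gave -0.34 to 0.16 for Ebp, -0.29 to 0.35 for Sc5d, -0.45 to 0.29 for Tm7sf2, -0.96 to 0.055 for Cyp51, -0.57 to 0.00012 for Nsdhl, -0.38 to 0.24 for Scd1, -0.12 to 0.0049 for Scap and -0.97 to 0.65 for Insig1. Between 24 and 6 h in WT it gave -0.87 to 0.0031 for Tm7sf2 and -1.28 to 0.34 for Insig1, whose KO minus WT value at 6 h ran from -1.44 to 0.17. It gave -0.056 to 0.36 for Fads2 in MUT, and -0.11 to 0.088 for Sqle and -0.32 to 0.058 for Stard4 in KO, all at 6 h. The median over the 30 ran from -0.092 to 0.34 in WT and from -0.044 to 0.17 in KO between 24 and 6 h, from -0.046 to 0.46 for KO minus WT at 6 h, and from -0.35 to 0.15 and -0.075 to 0.41 for MUT minus WT at 6 and 24 h. The pairing of MUT (0.0633 and 0.0710) and KO (-0.282 and -0.134) numbers did not meet the limit of 0.1, so their block is given as counts only; crossing the KO numbers, added after seeing the data, gave 0 and 0. Untreated genotypes were compared with no block. Leaving out cultures or libraries, also added later, gave with the block 7 to 12 in WT at 6 h, 5 to 10 at 24 h and 1 to 6 between them. With the sets it gave 8 to 13 and 5 to 12 in WT at 6 and 24 h, 5 to 10 in MUT at 6 h and 5 to 8 between 24 and 6 h. In WT replicates 1 and 2 it gave 0 to 6 at 6 h and 1 to 9 at 24 h, and in replicates 3 and 4, 5 to 8 at 6 h.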
